A study of Mus musculus with 48 samples.

Results

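A set of 10 genes tied to the activation of hepatic stellate cells, with Lrat and Des as genes of the resting state, were followed across 6 genotype groups of mouse liver. They were found by the Ensembl identifiers of Acta2, Tagln, Des, Lrat, Pdgfrb, Pdgfra, Pdgfa, Tgfb1, Lox and Loxl2 and make up 10 of the 55416 genes counted in each liver. Hepatic stellate cells lie between the hepatocytes and the sinusoidal endothelium, where resting cells store retinyl esters. In injured liver they lose this store, turn on contractile proteins and platelet-derived growth factor receptors, and lay down and cross-link collagen. Transforming growth factor-β (TGFβ) and the platelet-derived growth factors (PDGF) are the best known signals that drive this change.

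RNA was sequenced from 48 livers of mice labelled C57Bl/6J, a separate animal for each library and 8 for each genotype. Groups DN:WT, DN:HET and DN:HOM carried 0, 1 or 2 copies of the W441R change in the nuclear receptor LXRα (Nr1h3), a dominant-negative allele made by CRISPR-Cas9 in a founder mouse. The groups KO:WT, KO:HET and KO:HOM carried 0, 1 or 2 copies of an LXRα knockout allele, from a line once on a mixed Sv129 and C57Bl/6 background and later backcrossed to C57BL/6. Every mouse ate a western diet for 8 weeks from about 8 weeks of age. The knock-in mice were male and the knockout experiment is described as a repeat of theirs, and both alleles were present in every cell type from birth. The studies ran at different sites, so that allele, site and any difference between the cohorts cannot be told apart wherever the studies are set side by side.

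Reads on genes numbered 5332897 to 16961379 per liver (median 15879971), and 2 knockout livers (KO:HET and KO:HOM, 1 each) held under 10000000. Levels are given as counts per 1000000 reads (CPM) scaled by the trimmed mean of M-values (TMM). Nr1h3 was at 93.5 ± 8.82 CPM (SD, n = 8) in KO:WT, 59.2 ± 5.63 CPM (SD, n = 8) in KO:HET and 27 ± 1.99 CPM (SD, n = 8) in KO:HOM livers, with no overlap between these groups. It was at 91.7 ± 5.04 CPM (SD, n = 7) in DN:WT, 92.7 ± 4.58 CPM (SD, n = 8) in DN:HET and 72.7 ± 3.56 CPM (SD, n = 7) in DN:HOM livers. Its DN:HOM log2 difference was -0.32 (adjusted p = 1.5e-05, edgeR) and 0.11 under library-size scaling. The W441R change itself cannot be read from counts. The expression of 2 knock-in livers went against their labels, in that DN:WT animal 10 held the highest DN:WT level of 9 of the 10 genes and DN:HOM animal 12 the lowest DN:HOM level of all 10. Their summed levels of 6 macrophage markers were 1558 and 103.8 CPM, against 93.8 to 181 CPM in the other DN:WT and 1014 to 1594 CPM in the other DN:HOM livers. Both were left out of the values that follow unless all 48 livers are named, and neither was moved to another group. Markers of the stellate cell itself were present in every group, with 10 of 10 detected and summed levels of 330 to 384 CPM in DN:WT and 298 to 469 CPM in KO:WT livers.

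In DN:HOM livers 9 of the 10 genes were higher than in DN:WT livers, by 0.87 to 3.28 on the log2 scale, and Lrat did not pass the test. KO:HOM livers were higher than KO:WT livers for 5 of the 10, namely Tgfb1, Pdgfrb, Pdgfra, Des and Lrat. The background was 29.1% of 15711 tested genes called higher in DN:HOM and 11.5% in KO:HOM livers (edgeR quasi-likelihood test, Benjamini-Hochberg adjusted p under 0.05). The shares called lower were 30% in DN:HOM and 7.87% in KO:HOM livers, or 25% and 4.12% over all 48 livers. Over all 48 livers 9 of the 10 genes were again called in DN:HOM livers, with 23% of 15621 genes as background. In KO:HOM livers 2 (Tgfb1 and Pdgfrb) were, with 8.79% as background. Both added livers are knock-in livers, so the knockout livers compared were the same. The KO:HOM differences changed little, as for Pdgfra (0.75 and 0.76). Their standard errors rose (0.18 and 0.31 for Pdgfra), in a fit that takes its spread over all 6 groups. The 10 genes had a median log2 difference of 1.45 in DN:HOM and 0.55 in KO:HOM livers, beside -0.01 and -0.02 over all tested genes. Every DN:HOM liver lay above every DN:WT liver for 7 of the 10 genes (all but Acta2, Tagln and Lrat), which held for 17.7% of tested genes. It held for 0 of the 10 over all 48 livers, beside 0.0512% of tested genes. In the knockout study it held for Tgfb1 alone, beside 2.18% of tested genes (2.19% in the fit of all 48 livers). In whole liver, more cells of a type and more RNA per cell cannot be told apart.

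**Figure D1:**
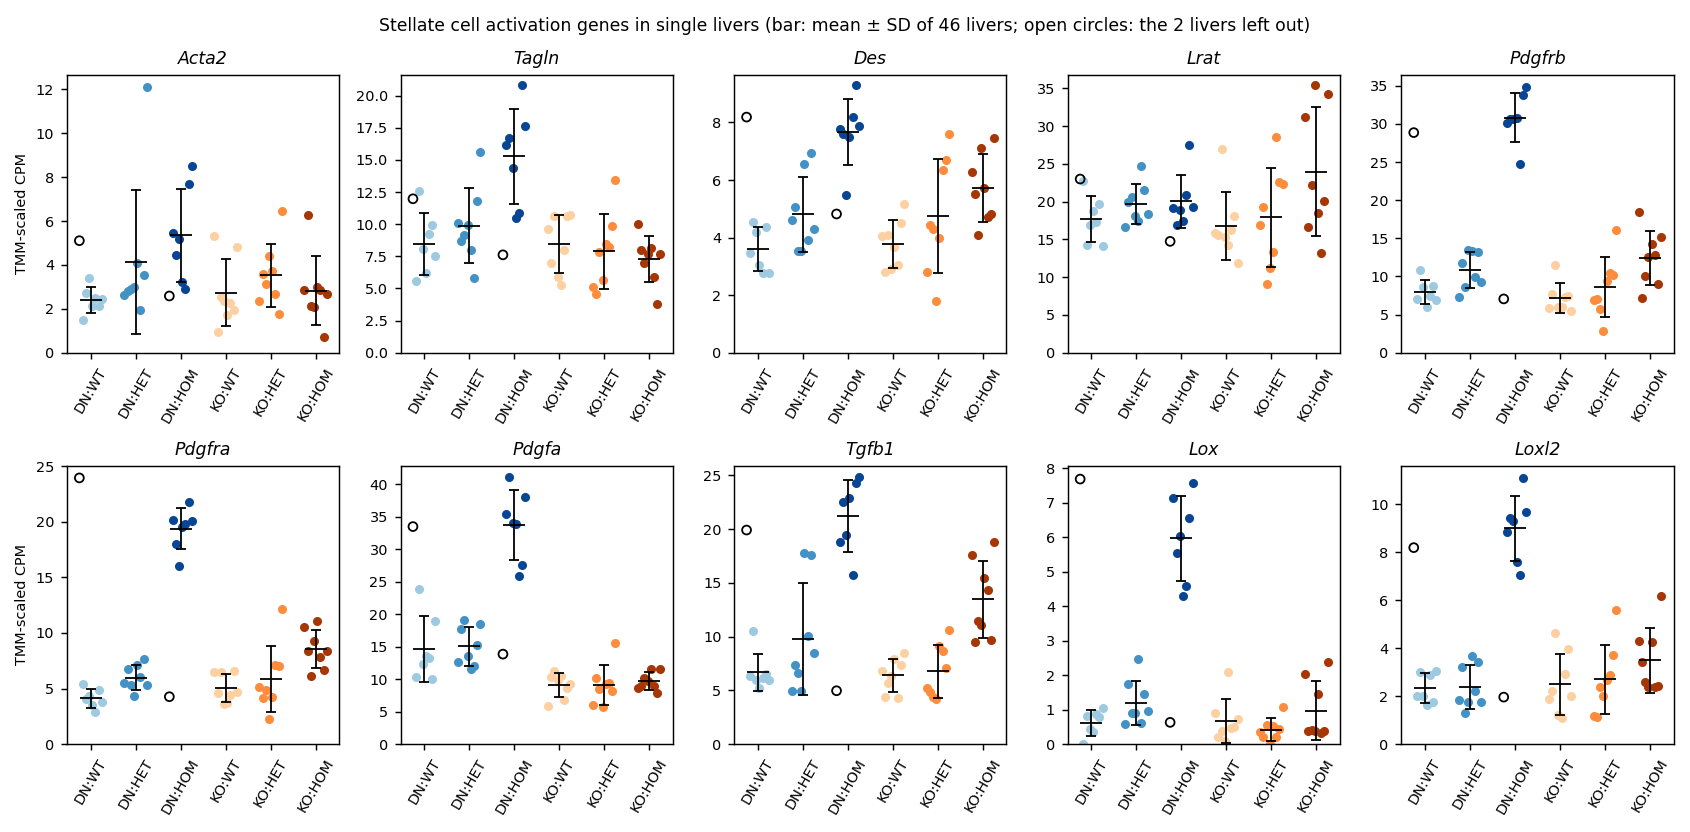
TMM-scaled CPM (y axis, linear, from 0) of each of the 10 genes in single livers of the 6 genotype groups (x axis), with the mean and SD of the 46 livers as bars and the 2 livers left out as open circles. The DN:HOM livers stand above all other groups for Pdgfrb, Pdgfra, Pdgfa, Lox and Loxl2, and the open circles lie away from their labelled groups for most genes.

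Lrat (ENSMUSG00000028003, chr3:82799886-82811288 on the minus strand of GRCm39) encodes the acyltransferase that turns retinol into the retinyl esters of resting stellate cells. It ran from 14.1 through a median of 17.2 to 22.8 CPM in DN:WT, from 16.6 through a median of 19.2 to 24.8 CPM in DN:HET and from 17 through a median of 19.2 to 27.6 CPM in DN:HOM livers. These 3 groups overlapped over most of their range. The DN:HOM against DN:WT log2 difference was 0.20 ± 0.19 (adjusted p = 0.39), and 0.08 ± 0.18 (adjusted p = 0.74) over all 48 livers by the edgeR quasi-likelihood test with Benjamini-Hochberg adjustment. With library size alone as the scaling it was 0.62 (adjusted p = 0.0052), a setting under which the median of all genes was at 0.42 in this comparison and 0.09 in KO:HOM against KO:WT livers. Among knockout livers Lrat ran from 11.9 through a median of 15.7 to 26.9 CPM in KO:WT, from 9.05 through a median of 18.1 to 28.5 CPM in KO:HET and from 13.1 through a median of 21.2 to 35.5 CPM in KO:HOM livers. Animals 8, 11 and 22 held the 3 highest KO:HOM levels, and the other 5 KO:HOM livers lay within the KO:WT range. The KO:HOM difference was 0.52 ± 0.18 (adjusted p = 0.038), and it missed the threshold over all 48 livers at 0.52 ± 0.18 (adjusted p = 0.053).

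Des (ENSMUSG00000026208, chr1:75320511-75345223 on the plus strand) encodes desmin, an intermediate filament. It was at 3.60 ± 0.766 CPM (SD, n = 7) in DN:WT, 4.81 ± 1.30 CPM (SD, n = 8) in DN:HET and 7.67 ± 1.14 CPM (SD, n = 7) in DN:HOM livers. All 7 DN:HOM livers (from 5.46 through a median of 7.76 to 9.29 CPM) lay above the highest DN:WT liver (4.53 CPM). Its DN:HOM log2 difference was 1.10 ± 0.20 (adjusted p = 5.9e-06) by edgeR's quasi-likelihood test, and 0.80 ± 0.21 (adjusted p = 0.0019) over all 48 livers. In the knockout study Des ran from 2.82 through a median of 3.85 to 5.17 CPM in KO:WT and from 4.10 through a median of 5.61 to 7.46 CPM in KO:HOM livers. This difference was 0.59 ± 0.19 (adjusted p = 0.02), or 0.60 ± 0.21 (adjusted p = 0.055) over all 48 livers, where it was not called. The widest spread was that of KO:HET livers, from 1.81 through a median of 4.38 to 7.60 CPM, which covered both other knockout groups.

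Of 13 genes of retinoid storage and the resting state, Lrat included, 4 rose and 4 fell in DN:HOM livers, with a median log2 difference of 0.09 that library-size scaling moved to 0.52 (8 higher and 4 lower). Of all tested genes 29.1% were called higher and 30% lower in this comparison. The counts over all 48 livers were 3 higher and 4 lower. Ecm1, an extracellular matrix protein that quiescent stellate cells make, fell by 1.48 on the log2 scale, Angptl6 fell by 1.79 and the receptor gene Vipr1 fell by 1.71. Among the genes that rose were the hepatocyte growth factor gene Hgf (1.19 ± 0.16, adjusted p = 3.0e-08) and the proteoglycan gene Dcn (1.10 ± 0.15, adjusted p = 3.7e-08), both picked after their values were seen. The lowest value, in a gene outside the naming rule and picked in the same way, was that of the Hedgehog-binding protein gene Hhip (-3.75 ± 0.44, adjusted p = 8.2e-10; -2.29 over all 48 livers). Of the 13 in KO:HOM livers 7 rose and 0 fell (median 0.40; 11.5% and 7.87% of all tested genes), beside 4 and 0 over all 48 livers and 10 and 0 under library-size scaling. Ecm1 was at 0.25, Angptl6 at 0.06, Hhip at 0.07 and Vipr1 within 0.01 of 0 there, and none of these passed the test. The homozygous effects of the studies differed for Ecm1, Angptl6 and Vipr1, by -1.73, -1.85 and -1.71 (adjusted p = 1.1e-09, 8.0e-08 and 3.1e-07, edgeR). These genes were named by their DN:HOM adjusted p, which favours such a difference. Of the 13 the DN:HOM effect was higher for 1, lower for 4 and not called different for 8 (0 higher and 4 lower over all 48 livers).

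Acta2 (ENSMUSG00000035783, chr19:34217737-34232990 on the minus strand) encodes α-smooth muscle actin, which is the protein by which activated stellate cells are usually recognised. Its RNA ran from 1.48 through a median of 2.43 to 3.42 CPM in DN:WT and from 2.91 through a median of 5.18 to 8.52 CPM in DN:HOM livers. The groups overlapped, since DN:HOM animals 31 and 33 (3.20 and 2.91 CPM) lay within the DN:WT range. Its log2 difference was 1.17 ± 0.35 (adjusted p = 0.0044) by edgeR's quasi-likelihood test, and 0.86 ± 0.34 (adjusted p = 0.034) over all 48 livers. DN:HET livers ran from 1.93 through a median of 2.96 to 12.1 CPM, and the highest level of all 48 livers was that of DN:HET animal 8 (12.1 CPM), well above the next DN:HET liver (4.09 CPM). Knockout livers did not separate by genotype and ran from 0.962 through a median of 2.31 to 5.29 CPM in KO:WT, from 1.78 through a median of 3.35 to 6.46 CPM in KO:HET and from 0.740 through a median of 2.77 to 6.26 CPM in KO:HOM livers. The KO:HOM difference was -0.03 ± 0.34 (adjusted p = 0.96), and its sign turned under library-size scaling (0.08).

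Tagln (ENSMUSG00000032085, chr9:45840909-45847404 on the minus strand) encodes transgelin, an actin-binding protein of smooth muscle and myofibroblasts. It ran from 5.62 through a median of 8.06 to 12.6 CPM in DN:WT, from 5.84 through a median of 9.56 to 15.6 CPM in DN:HET and from 10.4 through a median of 16.2 to 20.8 CPM in DN:HOM livers. Of the DN:HOM livers 5 of 7 lay above all 7 DN:WT livers. The log2 difference was 0.87 ± 0.21 (adjusted p = 5.1e-04) by edgeR's quasi-likelihood test, and 0.69 ± 0.21 (adjusted p = 0.0069) over all 48 livers. In the knockout study the order was the other way, 8.46 ± 2.23 CPM (SD, n = 8) in KO:WT, 7.90 ± 2.90 CPM (SD, n = 8) in KO:HET and 7.28 ± 1.81 CPM (SD, n = 8) in KO:HOM livers. The difference of -0.23 ± 0.20 (adjusted p = 0.48) did not pass the test. Tagln shares exon sequence with Pcsk7 on the opposite strand. Stranded counts are meant to keep such genes apart, and reads carried over from the other strand were not measured. Among the 10 genes only Pdgfrb and Tgfb1 share no exon sequence with a gene on the opposite strand.

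Of 12 genes of the contractile list 9 were abundant enough to test, of which 3 rose (Acta2, Tagln and the tropomyosin gene Tpm1, 1.76 ± 0.14, adjusted p = 1.3e-14) and 2 fell in DN:HOM livers, as they did over all 48 livers. With TMM scaling 29.1% of all tested genes were called higher and 30% lower. Library-size scaling gave 6 and 1 of the list, with the median of all genes at 0.42 and no share of all genes computed. The genes that fell were Tpm2, another tropomyosin (-2.04 ± 0.22, adjusted p = 1.3e-10; -1.35 over all 48 livers), and the myosin light chain kinase gene Mylk (-0.51 ± 0.09, adjusted p = 2.0e-06). Of these 9 in KO:HOM livers 0 rose and 1 fell (Myl9, a regulatory myosin light chain named after its values were seen, -0.75 ± 0.26, adjusted p = 0.034), beside 11.5% and 7.87% of all tested genes. With library size alone 0 rose and 0 fell there. Of 6 markers of vascular smooth muscle 3 were abundant enough to test, with a median log2 difference of 1.02 in DN:HOM livers (0.57 over all 48 livers). Synpo2 rose there by 1.64 ± 0.30 (adjusted p = 1.0e-05), and Lmod1 was at 1.02 ± 0.49 (adjusted p = 0.069). The count that rose was 1 of 3 (1 over all 48 livers and 2 under library-size scaling), and 0 of 3 in KO:HOM livers. Their defining gene Myh11, the smooth muscle myosin heavy chain, was at -0.20 ± 0.42 (adjusted p = 0.7) in DN:HOM and -0.31 ± 0.38 (adjusted p = 0.62) in KO:HOM livers. The sum of the 6 ran 1.84 to 3.41 CPM in DN:WT and 1.97 to 9.11 CPM in DN:HOM livers. Cnn1, Actg2 and Myocd were too scarce to test, with 1 of the 6 (Myocd) at 0 in every DN:WT liver. Cnn1 ran 0 to 0.477 CPM in DN:WT, 0 to 0.677 CPM in DN:HOM and 0 to 1.61 CPM in KO:WT livers, and Actg2 ran 0 to 0.348, 0 to 0.284 and 0 to 0.941 CPM. DN:HET animal 8 held 1.22 CPM of Cnn1 and 1.80 CPM of Actg2. The sum in DN:HET animal 8 was 11 CPM, against 2.19 to 4.19 CPM in the other 7 DN:HET livers. Its part in the Acta2 level of that liver was not tested.

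The promoters of Acta2 and Lrat are shown because these genes stand for the activated and the resting state and moved least alike among the 10 genes from liver to liver (r = -0.16 over the 46 livers within genotypes). Each line gives the 250 bases before the RefSeq start of the gene, 5′ to 3′ on the minus strand of GRCm39, where the bases of the RefSeq promoter table (build GRCm38.p6) matched once and exactly. Capitals mark matches to the MCAT element (CATTCC, either strand) and to a CArG-like element, the binding site of serum response factor with 5 or 6 of its 6 core bases A or T, a definition chosen after the sequences were seen.
Acta2, chr19:34232774-34233023: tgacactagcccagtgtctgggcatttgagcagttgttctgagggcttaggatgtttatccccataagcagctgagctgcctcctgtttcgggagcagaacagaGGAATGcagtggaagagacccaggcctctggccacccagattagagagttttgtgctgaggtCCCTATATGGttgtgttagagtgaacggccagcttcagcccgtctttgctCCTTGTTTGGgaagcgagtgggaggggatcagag
Lrat, chr3:82811282-82811531: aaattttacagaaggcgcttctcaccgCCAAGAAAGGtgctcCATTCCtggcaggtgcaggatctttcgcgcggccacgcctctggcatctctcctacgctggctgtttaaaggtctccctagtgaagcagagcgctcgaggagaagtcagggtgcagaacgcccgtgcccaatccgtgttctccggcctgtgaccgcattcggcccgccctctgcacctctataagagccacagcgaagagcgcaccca

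The Acta2 window held 2 CArG-like matches, at bases 84 to 75 and 34 to 25 before the start, and an MCAT match on the opposite strand at bases 146 to 141. The Lrat window held 1 CArG-like match at bases 223 to 214 and an MCAT match at bases 208 to 203. Of 32851 promoters of the same length in the table, 8.59% held at least 1 CArG-like match, 0.670% held 2 or more and 12.6% held an MCAT match. Neither the strict CArG box (1.47% of promoters) nor the LXR element DR4 (0.0152%; 2 AGGTCA half-sites in 1 direction with 4 bases between them) matched in any of the 6 genes of the group whose promoters were searched on both strands, namely Acta2, Lrat, Des, Pdgfra, Pdgfa and Tgfb1. A match describes the letters of the window and no binding was measured.

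Pdgfa (ENSMUSG00000025856, chr5:138961758-138983435 on the minus strand) is the A chain of PDGF and a ligand of PDGF receptor-α. It ran from 10.03 through a median of 13.3 to 23.8 CPM in DN:WT, from 11.5 through a median of 14.4 to 19.2 CPM in DN:HET and from 25.9 through a median of 33.9 to 41.0 CPM in DN:HOM livers. The DN:HOM livers lay above every other liver of the 46. Its log2 difference in DN:HOM was 1.22 ± 0.17 (adjusted p = 5.9e-08) by edgeR's quasi-likelihood test and 0.88 ± 0.20 (adjusted p = 5.6e-04) over all 48 livers. DN:HET livers did not differ detectably from DN:WT livers (0.04 ± 0.17, adjusted p = 0.96). In the knockout study it was at 9.05 ± 1.87 CPM (SD, n = 8) in KO:WT, 9.10 ± 3.06 CPM (SD, n = 8) in KO:HET and 9.67 ± 1.35 CPM (SD, n = 8) in KO:HOM livers. The KO:HOM difference was 0.09 ± 0.17 (adjusted p = 0.75). Markers of bile duct cells were also higher in DN:HOM livers. All 5 (Krt19, Krt7, Epcam, Sox9 and Cldn7) rose in DN:HOM livers, by 1.98 to 4.0 on the log2 scale (1.18 to 2.39 over all 48 livers), and none passed the test in KO:HOM livers, beside 29.1% and 11.5% of all tested genes called higher. Their sum ran 6.67 to 10.4 CPM in DN:WT, 50.6 to 67.3 CPM in DN:HOM, 4.37 to 13.3 CPM in KO:WT and 5.80 to 12.7 CPM in KO:HOM livers, with 0 of the 5 at 0 throughout a group. The DN:WT and DN:HOM sums overlapped over all 48 livers, with DN:WT animal 10 at 65.2 CPM and DN:HOM animal 12 at 9.64 CPM. Its part in the Pdgfa level was not tested.

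Pdgfra (ENSMUSG00000029231, chr5:75311994-75358876 on the plus strand) is the receptor for the PDGF A chain. Its level ran from 2.90 through a median of 4.07 to 5.40 CPM in DN:WT, from 4.30 through a median of 5.78 to 7.63 CPM in DN:HET and from 16.1 through a median of 19.8 to 21.8 CPM in DN:HOM livers. Among the 46 livers the lowest DN:HOM liver held more than any liver of the other 5 groups, and DN:WT animal 10 was at 24 CPM. Its log2 difference of 2.25 ± 0.20 (adjusted p = 6.1e-13) had the smallest adjusted p of the 10 genes in the edgeR quasi-likelihood fit, and over all 48 livers it was 1.39 ± 0.31 (adjusted p = 4.1e-04). KO:HOM livers (from 6.15 through a median of 8.37 to 11.1 CPM) overlapped KO:WT livers (from 3.60 through a median of 4.65 to 6.59 CPM), with a difference of 0.75 ± 0.18 (adjusted p = 0.0026) that was not called over all 48 livers, at 0.76 ± 0.31 (adjusted p = 0.11). KO:HET livers ran from 2.21 through a median of 5.02 to 12.2 CPM, with animal 9 above every KO:HOM liver.

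Pdgfrb (ENSMUSG00000024620, chr18:61178212-61218133 on the plus strand) is the receptor for the B chain and the main PDGF receptor of stellate cells. Its level ran from 6.06 through a median of 7.41 to 10.8 CPM in DN:WT, from 7.27 through a median of 10.8 to 13.4 CPM in DN:HET and from 24.8 through a median of 30.7 to 34.9 CPM in DN:HOM livers. As with the other receptor, no liver of another group reached the DN:HOM range among the 46. The log2 difference was 1.97 ± 0.20 (adjusted p = 3.7e-11) by edgeR's quasi-likelihood test, and 1.39 ± 0.27 (adjusted p = 1.1e-04) over all 48 livers. It ran from 5.51 through a median of 6.67 to 11.5 CPM in KO:WT, from 2.82 through a median of 8.20 to 16 CPM in KO:HET and from 7.21 through a median of 12.6 to 18.4 CPM in KO:HOM livers. The difference of 0.80 ± 0.19 (adjusted p = 0.0021) held over all 48 livers at 0.80 ± 0.28 (adjusted p = 0.047). KO:HOM animal 11 held the highest level of the group (18.4 CPM) and animal 17, a liver of low depth, the lowest (7.21 CPM).

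All 7 genes of the PDGF list, 3 of the 10 genes included, rose in DN:HOM livers, with a median of 2.25 (1.39 with 7 of 7 over all 48 livers). In KO:HOM livers 4 of 7 rose, with a median of 0.75 (2 of 7 over all 48 livers). Of all tested genes 29.1% were called higher in DN:HOM and 11.5% in KO:HOM livers. Pdgfb, the B chain made by platelets, macrophages and endothelium, rose by 2.91 ± 0.32 (adjusted p = 1.8e-10) in DN:HOM and by 1.44 ± 0.30 (adjusted p = 4.2e-04) in KO:HOM livers. Pdgfd, another ligand of PDGF receptor-β, rose by 2.48 ± 0.30 (adjusted p = 1.4e-09) in DN:HOM livers and was at 0.32 ± 0.28 (adjusted p = 0.48) in KO:HOM livers. Their DN:HOM differences over all 48 livers were 1.89 for Pdgfb and 1.78 for Pdgfd, both still called. The median of all tested genes was -0.01 and -0.02 in these comparisons. Of the 4 platelet markers 3 were tested, and Itga2b and Ppbp, which define the lineage, were at 0.05 and -0.22 in DN:HOM livers without passing the test. Pf4, which macrophages can also express, rose by 2.76 ± 0.41 (adjusted p = 1.5e-07), and the sum of the 4 ran 3.13 to 5.30 CPM in DN:WT and 5.37 to 9.48 CPM in DN:HOM livers. Portal fibroblast markers rose beside the PDGF receptors in DN:HOM livers, with 4 of 5 tested genes higher (4 over all 48 livers). The portal fibroblast sum ran 7.54 to 11.7 CPM in DN:WT, 29.8 to 49.9 CPM in DN:HOM, 6.11 to 14.6 CPM in KO:WT and 9.79 to 15.7 CPM in KO:HOM livers, and DN:WT animal 10 and DN:HOM animal 12 held 32.7 and 11.9 CPM. Whether they hold part of the receptor RNA was not tested.

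**Figure D2:**
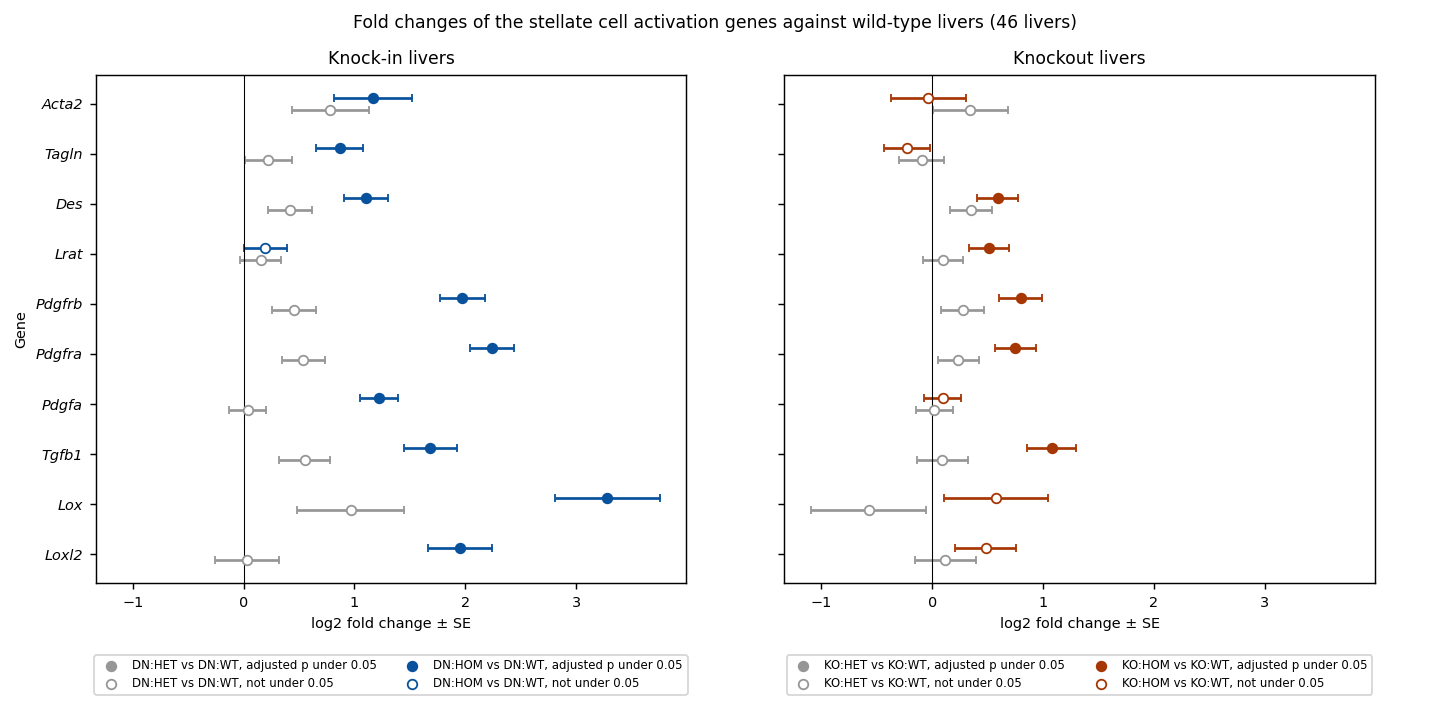
Log2 fold change with its standard error (x axis) of each gene (y axis) against wild-type livers of the same study, for heterozygous (grey) and homozygous livers (blue, knock-in; brown, knockout), with filled points where the edgeR adjusted p was under 0.05. No heterozygous point is filled, 9 of 10 DN:HOM points and 5 of 10 KO:HOM points are filled, and Acta2, Tagln and Pdgfa lie near 0 in KO:HOM livers.

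Tgfb1 (ENSMUSG00000002603, chr7:25386390-25404506 on the plus strand) is the TGFβ ligand that is best known for driving collagen synthesis in stellate cells. It was the 1 gene of the 10 whose homozygous and wild-type livers did not overlap in either study among the 46 livers. It ran from 5.17 through a median of 6.13 to 10.5 CPM in DN:WT, from 4.92 through a median of 7.90 to 17.8 CPM in DN:HET and from 15.7 through a median of 22.5 to 24.9 CPM in DN:HOM livers. The DN:WT and DN:HOM ranges overlapped over all 48 livers, where DN:WT animal 10 was at 19.9 CPM and DN:HOM animal 12 at 4.96 CPM. The DN:HOM log2 difference was 1.69 ± 0.24 (adjusted p = 6.7e-08) by edgeR's quasi-likelihood test and 1.20 ± 0.28 (adjusted p = 6.8e-04) over all 48 livers. In the knockout study it ran from 4.31 through a median of 6.56 to 8.47 CPM in KO:WT, from 4.23 through a median of 6.14 to 10.6 CPM in KO:HET and from 9.49 through a median of 12.9 to 18.8 CPM in KO:HOM livers. No KO:HOM liver overlapped the KO:WT livers, and the difference was 1.08 ± 0.22 (adjusted p = 4.5e-04), or 1.08 ± 0.28 (adjusted p = 0.0077) over all 48 livers. The homozygous effects of the studies did not differ detectably (0.61 ± 0.32, adjusted p = 0.14). DN:HET animals 4 and 22 (17.6 and 17.8 CPM) lay in the DN:HOM range, whereas the other 6 DN:HET livers held 4.92 to 10.1 CPM.

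Macrophage markers moved with Tgfb1. Of 6 (Cd68, Adgre1, Csf1r, Lyz2, Itgam and Ctss) all rose in DN:HOM livers and 5 rose in KO:HOM livers (5 and 5 over all 48 livers), with 0 of the 6 at 0 throughout a group. Their sum ran 93.8 to 181 CPM in DN:WT, 117 to 1020 CPM in DN:HET, 1014 to 1594 CPM in DN:HOM, 65.8 to 192 CPM in KO:WT and 277 to 1204 CPM in KO:HOM livers. In DN:HET animals 4 and 22 it was 992 and 1020 CPM. The sum of 4 T cell markers in these livers was 15 and 19.5 CPM, where the DN:WT livers held 1.04 to 2.47 CPM. KO:HOM animals 8 and 11, with the 2 highest Tgfb1 levels of their group (18.8 and 17.6 CPM), also held the 2 highest macrophage sums (1204 and 892 CPM). How much of the Tgfb1 RNA came from macrophages was not tested. T cell markers rose in KO:HOM livers (4 of 4, 3.90 to 13.2 CPM beside 0.718 to 4.10 CPM in KO:WT) and in DN:HOM livers 1 of 4 did (2.02 to 4.70 CPM). These counts were 4 and 0 of 4 over all 48 livers. The shares of all tested genes called higher were 29.1% in DN:HOM and 11.5% in KO:HOM livers, or 23% and 8.79% over all 48 livers.

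Of the 13 TGFβ ligands and the proteins that hold or release them, 12 rose in DN:HOM livers (11 over all 48 livers), with a median of 2.18 (1.49 over all 48 livers). Of these genes 6 rose in KO:HOM livers (3 over all 48 livers), with a median of 0.63. Itgav, the αv integrin subunit that frees TGFβ from its latent complex, rose by 1.27 ± 0.09 (adjusted p = 2.0e-15), and Thbs1, a matrix protein that can also free it, rose by 3.58 ± 0.29 (adjusted p = 4.7e-14). Ltbp2 and Ltbp3, of the latent TGFβ-binding protein family, rose by 3.53 ± 0.32 (adjusted p = 1.3e-12) and 2.18 ± 0.20 (adjusted p = 1.0e-12). The fit of all 48 livers put Thbs1 at 1.96, Ltbp2 at 2.25 and Ltbp3 at 1.49, each called. Of 14 receptors and Smads 8 rose and 3 fell in DN:HOM livers (median 0.42). The counts were 7 and 1 over all 48 livers and 12 and 0 under library-size scaling, and in KO:HOM livers 2 were higher (1 over all 48 livers and 3 under library-size scaling). The shares of all tested genes called higher, for each list of this paragraph, were 29.1% in DN:HOM and 11.5% in KO:HOM livers, and 30% were called lower in DN:HOM livers. The 2 signalling receptors Tgfbr1 and Tgfbr2 rose by 1.21 ± 0.09 (adjusted p = 1.1e-15) and 1.14 ± 0.16 (adjusted p = 8.6e-08), the decoy receptor gene Bambi by 1.75 ± 0.23 (adjusted p = 1.1e-08) and Smad3 by 0.90 ± 0.14 (adjusted p = 4.2e-07). The 3 that fell, named after their values were seen, were the ubiquitin ligase genes Smurf1 (-0.32 ± 0.09, adjusted p = 0.002) and Smurf2 (-0.21 ± 0.08, adjusted p = 0.03) and the co-receptor gene Eng (-0.27 ± 0.11, adjusted p = 0.039), of which Smurf2 (adjusted p = 0.065) and Eng (adjusted p = 0.085) were not called over all 48 livers. Among 8 genes known to respond to TGFβ, 7 rose in DN:HOM livers (7 over all 48 livers), with a median of 2.13 (1.63 over all 48 livers). This held for 4 of the 8 in KO:HOM livers (2 over all 48 livers), with a median of 0.76. The type I collagen genes Col1a1 and Col1a2 rose by 3.50 ± 0.46 (adjusted p = 1.1e-08) and 2.97 ± 0.33 (adjusted p = 2.1e-10) in DN:HOM livers. The protease inhibitor gene Timp1 rose by 4.73 ± 0.57 (adjusted p = 1.7e-09) and the matrix gene Tgfbi by 1.51 ± 0.17 (adjusted p = 3.2e-10). In KO:HOM livers Timp1 rose by 2.21 ± 0.58 (adjusted p = 0.0046) and Col1a2 by 0.83 ± 0.29 (adjusted p = 0.039), and Col1a1 was at 1.03 ± 0.41 (adjusted p = 0.068). With all 48 livers Col1a1, Col1a2 and Timp1 were at 2.01, 1.83 and 2.35 in DN:HOM livers and still called, and in KO:HOM livers Timp1 (adjusted p = 0.068) and Col1a2 (adjusted p = 0.21) were not.

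Lox (ENSMUSG00000024529, chr18:52649136-52663110 on the minus strand) is lysyl oxidase, which starts the cross-linking of collagen and elastin. It was the scarcest of the 10 genes in wild-type livers and had the largest DN:HOM difference. It ran from 0 through a median of 0.777 to 1.04 CPM in DN:WT, from 0.588 through a median of 0.935 to 2.46 CPM in DN:HET and from 4.28 through a median of 6.04 to 7.58 CPM in DN:HOM livers, which stood above every other group. The log2 difference was 3.28 ± 0.47 (adjusted p = 1.1e-07) by edgeR's quasi-likelihood test, and 1.78 ± 0.55 (adjusted p = 0.0073) over all 48 livers. DN:WT animal 10 (7.68 CPM) held the highest Lox level of all 48 livers. In KO:HOM livers the level split, since animals 8, 11 and 26 held 2.39, 2.03 and 1.46 CPM and the other 5 held 0.324 to 0.397 CPM. The KO:WT livers ran from 0.0766 through a median of 0.475 to 2.08 CPM, the KO:HET livers from 0 through a median of 0.388 to 1.08 CPM, and the KO:HOM difference was 0.58 ± 0.47 (adjusted p = 0.43). Lox counts were 2 to 39 reads in the KO:HOM livers, where the level was 0.966 ± 0.860 CPM (SD, n = 8). The macrophage sums of animals 8, 11 and 26 were 1204, 892 and 502 CPM, the 3 highest of the 8 KO:HOM livers, and the link was not tested.

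Loxl2 (ENSMUSG00000034205, chr14:69846209-69933283 on the plus strand) encodes a related oxidase. It ran from 1.63 through a median of 1.998 to 3.06 CPM in DN:WT, from 1.29 through a median of 2.01 to 3.69 CPM in DN:HET and from 7.04 through a median of 9.30 to 11.1 CPM in DN:HOM livers. The DN:WT and DN:HET livers covered nearly the same range and every DN:HOM liver lay above both. Its log2 difference was 1.95 ± 0.29 (adjusted p = 1.8e-07) by edgeR's quasi-likelihood test, and 1.39 ± 0.33 (adjusted p = 7.6e-04) over all 48 livers. Among knockout livers it was at 2.49 ± 1.26 CPM (SD, n = 8) in KO:WT, 2.69 ± 1.44 CPM (SD, n = 8) in KO:HET and 3.49 ± 1.36 CPM (SD, n = 8) in KO:HOM livers. Its KO:HOM difference was 0.48 ± 0.27 (adjusted p = 0.23). KO:HOM animal 8 held the highest level of that group for Loxl2 (6.18 CPM) as it did for Lox.

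Of 11 genes that cross-link or mature collagen 9 rose and 2 fell in DN:HOM livers (median 1.32; 7 and 2, with a median of 0.99, over all 48 livers; 9 and 1 under library-size scaling). Loxl1, another lysyl oxidase gene, rose by 3.26 ± 0.31 (adjusted p = 6.1e-12), and Plod2, the lysyl hydroxylase of the collagen telopeptides, by 2.69 ± 0.26 (adjusted p = 1.1e-11). Pcolce, an enhancer of procollagen cleavage, rose by 1.64 ± 0.19 (adjusted p = 1.0e-09). Loxl1 was at 2.02 and Plod2 at 1.71 in DN:HOM livers with all 48 livers, both called, and Loxl1 was not called there in KO:HOM livers (adjusted p = 0.25). Plod1, which hydroxylates lysines within the helix, fell by 1.0 (adjusted p = 1.1e-13, edgeR), and the other gene that fell, named after its values were seen, was the procollagen protease gene Bmp1 (-0.48 ± 0.12, adjusted p = 8.5e-04). In KO:HOM livers 2 of the 11 rose and 1 fell (median 0.48; 1 and 1 over all 48 livers; 4 and 0 under library-size scaling), with Loxl1 at 0.80 ± 0.29 (adjusted p = 0.045), Plod2 at 0.48 ± 0.24 (adjusted p = 0.17) and Plod1 at -0.11 ± 0.08 (adjusted p = 0.34). Of all tested genes 29.1% were called higher and 30% lower in DN:HOM livers, and 11.5% and 7.87% in KO:HOM livers.

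**Figure D3:**
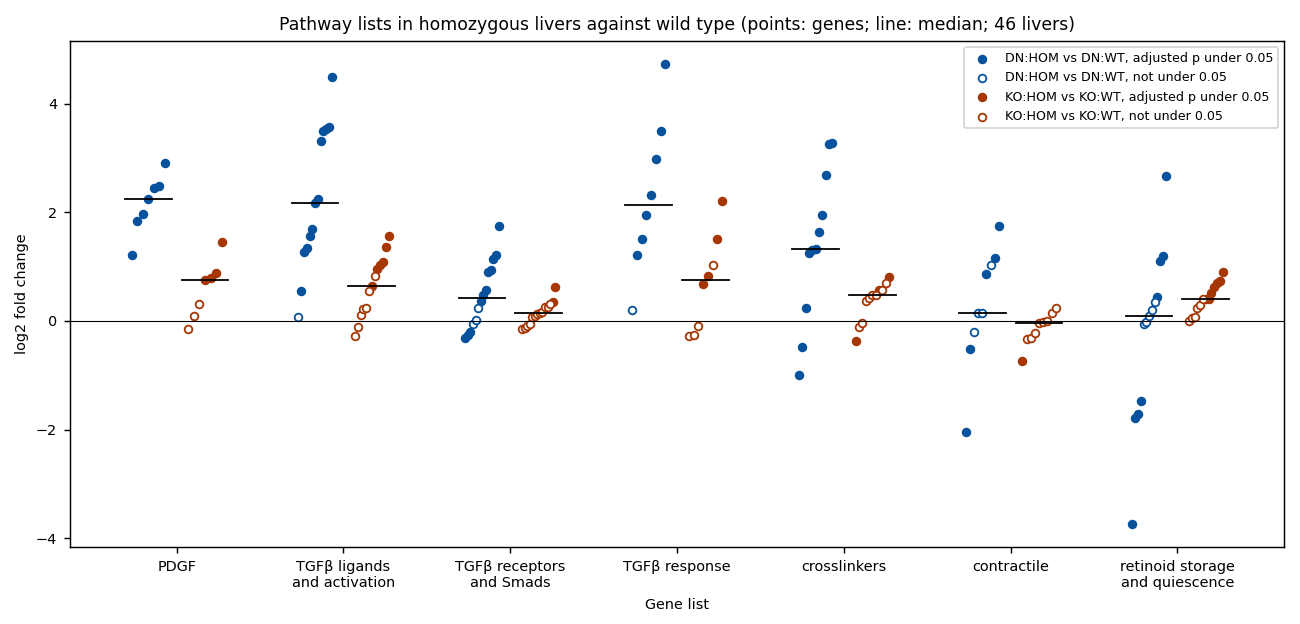
Log2 fold change (y axis) of single genes in 7 lists (x axis) in DN:HOM (blue) and KO:HOM livers (brown) against wild type of the same study, with filled points where the edgeR adjusted p was under 0.05 and lines at the medians. The PDGF, TGFβ ligand, TGFβ response and crosslinker lists sit at medians of 1.32 to 2.25 in DN:HOM livers and 0.48 to 0.76 in KO:HOM livers, and the contractile list sits near 0 in both.

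The markers of other cells give the setting of these values, beside 29.1% of all tested genes called higher in DN:HOM and 11.5% in KO:HOM livers. Of 8 markers of activated stellate cells, 4 of them among the 10 genes, 8 rose in DN:HOM and 2 in KO:HOM livers (8 and 0 over all 48 livers). Their sum ran 58.8 to 126 CPM in DN:WT, 486 to 698 CPM in DN:HOM, 52.0 to 191 CPM in KO:WT and 74.3 to 216 CPM in KO:HOM livers. Of 10 stellate cell markers, 3 of them among the 10 genes, 5 rose and 2 fell (Ecm1 and Hhip) in DN:HOM livers and 7 rose in KO:HOM livers, with sums of 418 to 625 CPM and 400 to 616 CPM. With all 48 livers 4 rose and 2 fell in DN:HOM and 3 rose in KO:HOM livers, and library-size scaling gave 8 and 2 in DN:HOM and 9 and 0 in KO:HOM livers. Of 6 hepatocyte markers 5 fell in DN:HOM livers (5 over all 48 livers, 4 with 1 higher under library-size scaling) and 4 fell in KO:HOM livers (1 over all 48 livers, 2 under library-size scaling), beside 30% and 7.87% of all tested genes. Albumin (Alb) was at -1.14 ± 0.13 (adjusted p = 1.9e-10) in DN:HOM and -0.43 ± 0.12 (adjusted p = 0.0059) in KO:HOM livers, where it was not called over all 48 livers (adjusted p = 0.095). The hepatocyte sum ran 61610 to 77310 CPM in DN:WT, 32656 to 40656 CPM in DN:HOM, 70171 to 95611 CPM in KO:WT and 48893 to 72018 CPM in KO:HOM livers. Endothelial markers, with 1 of 6 higher and 4 lower in DN:HOM livers and 1 higher and 1 lower in KO:HOM livers (0 and 4, and 1 and 1, over all 48 livers), held sums of 108 to 150 CPM in DN:WT and 72.0 to 131 CPM in DN:HOM livers. Their median log2 difference in DN:HOM livers was -0.48, and -0.05 under library-size scaling, which left 1 lower. Of 4 mesothelial markers 2 rose in DN:HOM livers (1 over all 48 livers, 3 with DESeq2 or upper-quartile scaling, 4 with library size alone; sums of 0.518 to 5.70 CPM in DN:WT and 2.07 to 11.1 CPM in DN:HOM livers) and 0 in KO:HOM livers. DN:WT animal 10 and DN:HOM animal 12 held 708 and 83.4 CPM of the activated stellate and 43178 and 80421 CPM of the hepatocyte markers. The part of these cell types in the levels of the 10 genes was not tested.

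A single copy of either allele did not change the 10 genes detectably. In DN:HET against DN:WT livers 0 of the 10 passed the edgeR quasi-likelihood test with Benjamini-Hochberg adjustment or DESeq2, beside 2.3% of all tested genes in either direction. All 10 differences were positive, with a median of 0.44, and 5 had an unadjusted p under 0.05 (Pdgfra, Tgfb1, Pdgfrb, Acta2 and Des). Of all tested genes 46.9% had a positive difference and 13.3% an unadjusted p under 0.05 in either direction. Pdgfra had the smallest adjusted p, at 0.54 ± 0.19 (adjusted p = 0.15), and passed when the knock-in study was fitted alone (0.56, adjusted p = 0.041). Over all 48 livers 6 of the 10 were positive and none had an unadjusted p under 0.05, beside 44.8% of all tested genes positive, 6.66% under that unadjusted p and 0.25% called. Of the marker lists, 3 of 6 macrophage, 3 of 4 T cell and 1 of 5 tested portal fibroblast markers were called higher in DN:HET against DN:WT livers (0, 2 and 0 over all 48 livers), and their part in the levels of the 10 genes was not tested. In KO:HET against KO:WT livers 0 of the 10 passed with either tool, 0 had an unadjusted p under 0.05, and the smallest adjusted p was 0.82, beside 6.24% of all tested genes under that unadjusted p and 0.0191% called. KO:HET animal 9 held the highest KO:HET level of 9 of the 10 genes (all but Lrat) and animal 3, a liver of low depth, the lowest level of 6.

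Against heterozygous livers, 8 of the 10 genes were higher in DN:HOM livers, with 26.1% of tested genes as background, and the exceptions were Acta2 (0.38 ± 0.33, adjusted p = 0.34, edgeR) and Lrat (0.04 ± 0.19, adjusted p = 0.87). Lox differed by 2.31 ± 0.42, Loxl2 by 1.92 ± 0.27 and Pdgfra by 1.71 ± 0.18 on the log2 scale. Over all 48 livers 8 of the 10 were again called, with 21.5% of 15621 genes as background. In KO:HOM against KO:HET livers 1 of the 10 passed, Tgfb1 at 0.99 ± 0.22 (adjusted p = 0.0037), with 7.24% of tested genes as background, and Tgfb1 again passed over all 48 livers, with 3.58%. The comparisons with heterozygous and wild-type livers share the homozygous livers.

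The DN:HOM and KO:HOM effects, each against wild type of its own study, were set against each other in the same fit. DN:HOM livers were raised by more for 6 of the 10 genes, with 16.5% of tested genes as background by the edgeR quasi-likelihood test. These were Lox (2.70 ± 0.67, adjusted p = 0.0014), Pdgfra (1.5 ± 0.27, adjusted p = 2.2e-05), Loxl2 (1.47 ± 0.40, adjusted p = 0.0032), Pdgfrb (1.18 ± 0.28, adjusted p = 7.9e-04), Pdgfa (1.12 ± 0.24, adjusted p = 2.4e-04) and Tagln (1.09 ± 0.29, adjusted p = 0.0031). Acta2 had a difference of the same order that missed the threshold (1.20 ± 0.49, adjusted p = 0.054) and passed under 4 of its 9 alternatives, among them DESeq2. Tgfb1 (0.61 ± 0.32, adjusted p = 0.14), Des (0.51 ± 0.27, adjusted p = 0.14) and Lrat (-0.32 ± 0.26, adjusted p = 0.37) did not pass. With library size alone as the scaling Tgfb1 (0.92, adjusted p = 0.03) and Des (0.82, adjusted p = 0.018) passed as well. That scaling put the median of all genes at 0.42 in DN:HOM and 0.09 in KO:HOM livers, each against wild type. No share of all tested genes was computed under it. Over all 48 livers only Tagln passed (0.91 ± 0.30, adjusted p = 0.043), with 4.05% of 15621 genes as background. Lox was at 1.20 ± 0.83 (adjusted p = 0.35) over all 48 livers.

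Mean levels per kilobase of exon allow the 10 genes to be set beside each other. In DN:WT livers Tagln (4.14 CPM per kb) and Lrat (3.30) were the most abundant, followed by Pdgfa (2.16) and Tgfb1 (1.31), with Pdgfra (0.335) and Lox (0.124) at the low end. In DN:HOM livers Pdgfa (4.98), Tgfb1 (4.17) and Pdgfrb (3.81 CPM per kb) stood above Lrat (3.74), and Tagln (7.47) was first. KO:HOM livers kept Lrat (4.47) and Tagln (3.56) at the top, with Tgfb1 next (2.65 CPM per kb). In the order of the 6 group means DN:HOM came first for 9 of the 10 genes, and for Lrat KO:HOM did. Its gap to the next group was beyond the larger SD of the 2 groups for 8 of these 9, the exception being Acta2, for which DN:HET came next. Among the other groups of all 10 genes, neighbours in the order differed by less than their SD, except Pdgfra in KO:HOM over DN:HET livers. KO:HOM was the second group for Des, Pdgfrb, Pdgfra, Tgfb1 and Loxl2.

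Liver-to-liver variation within genotypes was described by the Pearson correlation of log2 CPM deviations from the group means over the 46 livers. All genes of a liver share its depth and RNA composition, so no p is given. Of the 45 pairs among the 10 genes 44 were positive, with a median r of 0.44. Des and Pdgfra were most alike (r = 0.79), followed by Pdgfrb with Pdgfra (0.69) and with Des (0.64). Acta2 followed Tagln (r = 0.60) but hardly the PDGF receptors (0.01 with Pdgfrb and 0.11 with Pdgfra), and Lrat followed Pdgfrb (0.53) and Pdgfra (0.50). Over 11711 other genes of mean log2 CPM above 1, those most like Acta2 were Myl9 (r = 0.72), Myh11 (r = 0.70) and Tagln (r = 0.60), and those most like Tgfb1 were Msn (r = 0.93), Plekho2 (r = 0.90) and Itgal (r = 0.89). Pdgfrb was followed most closely by Igfbp7 (r = 0.87), Cpxm1 (r = 0.86) and Fstl1 (r = 0.83), and Pdgfra by Timp2 (r = 0.80), Des (r = 0.79) and Bgn (r = 0.79). For Des they were Pdgfra (r = 0.79), Daam2 (r = 0.78) and Igfbp7 (r = 0.77), and for Lrat Colec11 (r = 0.81), Col14a1 (r = 0.76) and Lhfpl6 (r = 0.75). Tagln varied most like Timp2 (r = 0.72), Cavin1 (r = 0.71) and Pam (r = 0.68), and Pdgfa like Fam83a (r = 0.75), Krt8 (r = 0.72) and Lmna (r = 0.72). The genes most like Loxl2 were Susd2 (r = 0.79), Tpm4 (r = 0.79) and Thbs1 (r = 0.79), and Lox, the lowest of the 10, had lower values, with Dgkz (r = 0.69), Tsc22d4 (r = 0.66) and Aldoa (r = 0.65).

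**Figure D4:**
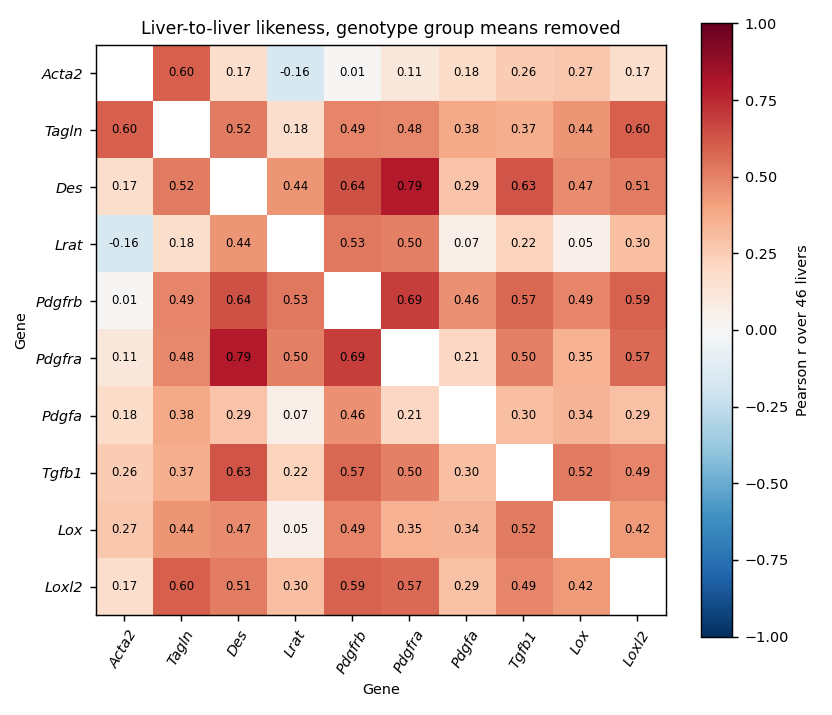
Pearson r (colour and number) between each pair of the 10 genes (both axes) over 46 livers, after the mean of each genotype group was removed from log2 CPM. Des, Pdgfra and Pdgfrb form the block of highest values (0.64 to 0.79), and Acta2 is near 0 with Pdgfrb (0.01) and below 0 with Lrat (-0.16).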

How the data were processed

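RNA from whole livers was sequenced as stranded mRNA libraries, and the authors aligned the reads with STAR 2.5.0a to GRCm39 with Ensembl annotation. The deposited files hold raw read counts per gene for each liver, and the strand that held 6.97 to 8.62 times the reads of the other was used. Lines that name no gene, with reads that mapped nowhere, to several places or to no single gene (24.0% to 35.0% per liver), were kept out of library sizes. Groups came from the genotype labels and animal numbers from the sample titles, with a separate animal for each library. Genes were kept by edgeR's default filter, scaled by TMM and tested with edgeR 4.0.16 quasi-likelihood tests (R 4.3.3) over all 6 groups in a single fit, with Benjamini-Hochberg adjustment over all 15711 genes tested and a threshold of 0.05. The fitting steps were tested on simulated data. All 10 genes passed the filter. Printed levels are CPM by TMM-scaled library size, chosen after the scaling factors were seen, and correlations used log2 CPM with a prior count of 2.

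The study gives 22 values a gene for 6 genes of the knock-in livers, with no reason stated for 2 fewer than the livers sequenced. Each value was set against its nearest liver among the 22 without DN:WT animal 10 and DN:HOM animal 12, normalised as in the study. For Abcb11, Baat, Nr0b2, Slc51a and Slc51b every value lay within 0.00048% of a liver. The nearest livers were 22 different ones for Abcb11, Baat and Nr0b2, 21 for Slc51a and 20 for Slc51b. Slc10a1 values lay up to 174% from the nearest liver, over 8 different livers, so they were not all matched. DN:WT animal 10 and DN:HOM animal 12 were left out here as well. The study tested its data with DESeq2, which was run here as an alternative (version 1.42.0). The 10 genes, the pathway lists and the marker lists were chosen with earlier results of these data known. Named genes were the 10, Nr1h3, up to 4 genes a list that passed the threshold, by smallest adjusted p in DN:HOM, defining markers of other cell types, and the 3 genes most like each of the 10. A gene that this rule also names is not reported here. Gene lengths and coordinates came from a GENCODE annotation of GRCm39, in which 98.8% of the identifiers were found. Promoters came from a RefSeq table, which held 6 of the 8 genes looked up. Alternatives were all 48 livers, leaving out the 2 livers under 10000000 reads, DESeq2, upper-quartile scaling, library size alone, other filters, unstranded counts, smaller fits and a threshold of 0.01.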

Additional observations from a re-analysis of the deposited data

Results flagged for a closer look

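In 60 sets of livers (10 genes in 6 genotype groups, all 48 livers), 16 had a highest or lowest liver whose gap to its neighbour was a large share of the range of its group. Chance flags about 1 in 20 groups that are independent. These sets share livers and genes that vary together, so the 16 flags cannot be measured against that rate. DN:WT animal 10 stood apart on the high side for Des (0.673 of the range), Pdgfrb (0.792), Pdgfra (0.881), Tgfb1 (0.636), Lox (0.864) and Loxl2 (0.782). DN:HOM animal 12 stood apart on the low side for Pdgfrb (0.637), Pdgfra (0.671), Tgfb1 (0.541) and Loxl2 (0.557). Acta2 stood apart on the high side in DN:HET animal 8 (0.787) and in KO:HOM animal 17 (0.595), a liver of low depth whose level was 6.26 CPM. KO:WT animal 23 was apart for Lrat (0.591, at 26.9 CPM) and Pdgfrb (0.625, at 11.5 CPM). KO:WT animal 32 was apart for Lox (0.587, at 2.08 CPM) and KO:HET animal 9 for Pdgfa (0.535, at 15.5 CPM).

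The homozygous effect was higher in the knock-in than in the knockout study for 6 of the 10 genes by the edgeR test of the difference, beside 16.5% of tested genes. Over all 48 livers this held for 1 of the 10 (Tagln), beside 4.05% of tested genes. In the 46 livers the log2 differences were 1.09 for Tagln, 1.18 for Pdgfrb, 1.5 for Pdgfra, 1.12 for Pdgfa, 2.70 for Lox and 1.47 for Loxl2. Allele, site and cohort cannot be told apart in them.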

How the results depend on the processing

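Beside the values reported, 9 of the 10 genes were called in DN:HOM livers under every alternative run that tested them. Tagln was not tested with unstranded counts and Lox not in 2 smaller fits of the knockout study. The count of genes called in KO:HOM against KO:WT livers fell from 5 to 2 over all 48 livers and was 3 at an adjusted p under 0.01. In DN:HET against DN:WT livers it was 1 (Pdgfra) with the study fitted alone, in place of 0. In KO:HOM against KO:HET livers it was 2 with DESeq2 and 3 with library size alone, in place of 1. The difference between the studies held for 1 gene over all 48 livers, in place of 6. It held for 9 with library size alone, for 7 under 3 alternatives and for 5 of 9 tested with unstranded counts. Library size alone put the median of all genes at 0.42 in DN:HOM against DN:WT and 0.09 in KO:HOM against KO:WT livers. Apart from all 48 livers, no share of all tested genes was computed for the alternatives. Their counts therefore have no background to be read against. The fit of all 48 livers differed by the 2 added livers, and with them by the genes tested, the scaling and the shared spread. No knockout liver was added, and which of these moved the counts was not tested.

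Signs turned for 10 values, of which the 8 that belong to the 10 genes were past the threshold in neither form. Acta2 in KO:HOM against KO:WT livers was at 0.0023 with DESeq2 and 0.082 with library size alone. Over all 48 livers Lrat was at -0.022 in DN:HOM against DN:HET livers, and in DN:HET against DN:WT livers Pdgfra was at -0.16, Pdgfa at -0.18, Lox at -0.35 and Loxl2 at -0.37. Unstranded counts put Pdgfa at -0.022 in KO:HET against KO:WT livers. With library size alone Nr1h3 was at 0.11 in DN:HOM against DN:WT and 0.0349 against DN:HET livers. The cause was not tested. Lrat in KO:HOM livers lost its call in 5 of 11 alternatives.

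No paired analysis was possible because the numbers in the titles are animal numbers, no number occurs in more than 1 group of a study, and equal numbers in the 2 studies are different animals. Whole-liver counts do not give cell numbers, Lox counts were low in most livers, and p-values measure the spread between animals, whose cohort within each study is not given in the labels.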
